A study of Homo sapiens with 30 samples.

Results

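The transcription factor p53 is held at a low level in unstressed cells, because its target MDM2 marks it for destruction, and it accumulates after DNA damage and other stresses. It then binds DNA as a tetramer at paired half-sites and raises genes that stop the cell cycle, repair DNA, feed back on p53 or start apoptosis. The genes described here are 10 such targets: CDKN1A, MDM2, GDF15, SESN1, BTG2, TP53I3, FAS, BBC3, ZMAT3 and RRM2B. They were chosen by symbol and are 10 of 60675 gene rows in the table of counts. All 10 were among the 17701 genes abundant enough to be tested, and each was followed over every group of the study.

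The study treated A549, a human lung adenocarcinoma line with a deletion of CDKN2A, for 24 h with ethanol extracts of tonifying herbal formulas of Korean medicine and sequenced messenger RNA. The extract groups were Sibjeondaebo-tang and Palmul-tang with 3 libraries per dose, Samul-tang with 2 and Sagunja-tang with 1, each at 20 µg/mL (low), 100 µg/mL (medium) and 500 µg/mL (high), and 3 vehicle libraries received DMSO only. The DMSO level is given as 0.1% in the sample labels and as 2% in the series text. Palmul-tang is the combination of Samul-tang with Sagunja-tang, and further herbs added to Palmul-tang make Sibjeondaebo-tang. All 13 groups share the 1 cell line, the exposure time and the batch letter in their titles. No label says whether replicates were separate cultures, so the p-values measure only how these libraries vary, which may be technical variation. Library codes of the vehicle begin differently from those of the extracts, so an effect common to all extracts and one of library preparation cannot be told apart. Sagunja-tang has no replicate and is given by its values alone.

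Libraries held 23986637 to 35159898 counts. On principal components of all tested genes, the 3 Sibjeondaebo-tang high-dose libraries stood apart from the others on the first axis (22.1% of the variance) and the 3 vehicle libraries on the second (15.6%). The epithelial keratins KRT8 and KRT18 ran from 3350 to 4400 CPM (counts scaled to a common library size) and from 2268 to 2924 CPM over the 30 libraries. Of the markers of other cell types, PTPRC, CD3E, VWF, CDH5, COL1A2 and PDGFRA never passed 0.226 CPM, while CD68 (12.7 to 27.0 CPM), COL3A1 (6.54 to 10.7 CPM) and DCN (4.12 to 6.89 CPM) were present in every library. So were CD14 (1.96 to 3.29 CPM), COL1A1 (1.04 to 2.60 CPM) and LUM (0.906 to 1.96 CPM), at lower levels. CDKN2A, whose ARF product restrains MDM2, had no count in any library.

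The start regions of the members differ in how much p53 sequence they carry close to the transcription start. RefSeq windows (GRCh38.p14) from 250 bases before to 50 bases after a start were used for 9 members, in 17 windows. They were searched for the p53 half-site, which reads alike on both strands. RRM2B was left out of this search. An exact half-site was in 6.63% of 35116 such windows of all genes, and one with up to 1 mismatch outside its central 4 bases was in 32.6%. Among the members, 2 had an exact half-site (SESN1 and FAS) and 5 had one with up to 1 mismatch, in 9 of the 17 windows, several of which overlap. The windows below are a selection, 1 for each of 5 members, 5′ to 3′ on the gene's strand, with half-sites of up to 1 mismatch in capitals. Of those not printed, the windows of BTG2, TP53I3 and ZMAT3 and 1 of SESN1 held no half-site. The BBC3 window held 1 with 1 mismatch.
CDKN1A (chr6:36678464-36678763, + strand, no half-site in this window): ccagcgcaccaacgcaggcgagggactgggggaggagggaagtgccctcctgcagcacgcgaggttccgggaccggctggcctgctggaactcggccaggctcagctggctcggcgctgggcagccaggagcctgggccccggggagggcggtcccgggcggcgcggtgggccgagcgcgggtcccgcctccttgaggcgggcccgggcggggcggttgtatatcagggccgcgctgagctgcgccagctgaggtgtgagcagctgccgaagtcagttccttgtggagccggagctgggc
MDM2 (chr12:68808767-68809066, + strand, an internal start): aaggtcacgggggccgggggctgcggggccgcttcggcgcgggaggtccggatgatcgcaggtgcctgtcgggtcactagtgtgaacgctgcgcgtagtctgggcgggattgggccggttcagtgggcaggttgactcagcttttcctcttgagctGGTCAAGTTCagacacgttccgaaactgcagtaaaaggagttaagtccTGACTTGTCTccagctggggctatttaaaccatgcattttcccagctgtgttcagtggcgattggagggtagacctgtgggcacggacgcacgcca
GDF15 (chr19:18385908-18386207, + strand): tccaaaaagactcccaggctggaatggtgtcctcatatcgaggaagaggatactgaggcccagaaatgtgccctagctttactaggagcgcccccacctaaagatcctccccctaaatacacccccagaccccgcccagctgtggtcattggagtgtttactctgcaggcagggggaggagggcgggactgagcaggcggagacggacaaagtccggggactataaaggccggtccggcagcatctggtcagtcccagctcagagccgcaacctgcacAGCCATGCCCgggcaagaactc
SESN1 (chr6:109008939-109009238, - strand, an internal start): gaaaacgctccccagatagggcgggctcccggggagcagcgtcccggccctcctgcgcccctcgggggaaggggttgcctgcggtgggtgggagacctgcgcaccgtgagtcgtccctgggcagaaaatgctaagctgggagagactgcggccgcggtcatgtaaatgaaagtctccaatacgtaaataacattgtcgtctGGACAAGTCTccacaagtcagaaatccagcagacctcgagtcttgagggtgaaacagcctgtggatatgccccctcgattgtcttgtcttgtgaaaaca
FAS (chr10:88991181-88991480, + strand, an internal start; its other windows hold no half-site): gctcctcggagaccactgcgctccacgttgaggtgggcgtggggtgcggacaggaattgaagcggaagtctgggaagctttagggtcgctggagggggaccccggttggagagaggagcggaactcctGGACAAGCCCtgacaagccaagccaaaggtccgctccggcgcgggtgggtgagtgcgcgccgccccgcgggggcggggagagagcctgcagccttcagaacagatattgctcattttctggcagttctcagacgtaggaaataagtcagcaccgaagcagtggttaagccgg
The MDM2 window holds GGTCAAGTTC at positions -94 to -85 from the start and TGACTTGTCT at -46 to -37, each with 1 mismatch, and this internal promoter is the one through which p53 is known to raise MDM2. SESN1 holds the exact half-site GGACAAGTCT at -49 to -40, and FAS holds GGACAAGCCC at -122 to -113. GDF15 holds AGCCATGCCC with 1 mismatch at 29 to 38, after the start. CDKN1A has none of these letters here, and its known p53 sites lie further upstream than the window reaches. A match describes the letters only.

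CDKN1A encodes p21, the inhibitor of cyclin-dependent kinases through which p53 arrests the cell cycle. Its gene lies at chr6:36676460-36687339 (GRCh38, + strand). In the vehicle libraries it measured 160.3, 168 and 160.2 CPM. Over the Sibjeondaebo-tang doses it measured 134, 139 and 137 CPM at the low dose, 135, 144 and 144 CPM at the medium dose and 159, 174 and 163 CPM at the high dose. The high-dose libraries lay above all low- and medium-dose libraries of that formula and on both sides of the vehicle libraries, with 1 of them below, 1 within and 1 above the vehicle range. Mean levels were 165 ± 7.63 CPM at the high dose and 137 ± 2.15 CPM at the low dose (SD, n = 3 each). The difference was 0.27 on the log2 scale (SE 0.045, adjusted p = 1.26e-05 by edgeR's quasi-likelihood test), or 20.9%. In bulk RNA, fewer expressing cells and less RNA per cell cannot be told apart.

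MDM2 is both a target and the main inhibitor of p53, as the ligase that marks it for degradation. It moved the other way from CDKN1A at the high dose of Sibjeondaebo-tang, with 87.1, 91.7 and 90.3 CPM there, against 92.3, 96.9 and 111 CPM at the low dose. The groups did not overlap, although the highest high-dose library (91.7 CPM) lay close to the lowest low-dose one (92.3 CPM). The log2 change was -0.16 (SE 0.055, adjusted p = 0.0244). This call was lost without any one of the high-dose replicates 1, 2 and 3 (adjusted p = 0.179, 0.0708 and 0.0891) or without low-dose replicate 3 (adjusted p = 0.295). The MDM2 gene overlaps the carboxypeptidase M gene on the opposite strand, and whether counting used strand is not given in the sources used here. The same limit holds for CDKN1A (with DINOL), FAS (with ACTA2), SESN1 (with AL390208.1) and TP53I3 (with FAM228B), whose reads cannot then be told apart from those of the opposite strand.

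GDF15, a secreted stress cytokine of the TGF-beta family that p53 and the stress factors ATF4 and CHOP can each raise, had the largest change of the members in this comparison. It measured 7.87, 9.43 and 8.75 CPM at the high dose, against 6.72, 5.83 and 5.29 CPM at the low dose. No low-dose library reached a high-dose one, and the log2 change was 0.54 (SE 0.11, adjusted p = 0.000178), or 45.8%. With CDKN1A and MDM2 it made 3 called members of 10, of which 2 were higher and 1 was lower, while 38.4% of all tested genes were called in the same comparison (18.5% higher and 19.9% lower). The members as a list were thus called no more often than genes at large, and their median log2 change was 0.11 against -0.01 over all tested genes. CDKN1A and GDF15 kept their calls in all 11 alternative analyses of this comparison.

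The other 7 members did not pass the threshold between the high and the low dose of Sibjeondaebo-tang. RRM2B, the p53-inducible small subunit of ribonucleotide reductase, came closest, with 57.4, 55.0 and 56.3 CPM at the high dose against 49.1, 50.7 and 54.3 CPM at the low dose (log2 change 0.13, adjusted p = 0.0522). Its high-dose libraries lay above all 24 libraries of the other extract groups, which reached 54.6 CPM. FAS, the death receptor of the TNF receptor family, had a log2 change of 0.12 (adjusted p = 0.0677), and BTG2, an antiproliferative gene that p53 raises early, had 0.15 (adjusted p = 0.0689). SESN1, TP53I3, BBC3 and ZMAT3 had log2 changes of 0.09, 0.06, 0.01 and -0.05, and their libraries overlapped between the doses. For BBC3, measured at 3.32 to 7.59 CPM over all libraries, the 95% interval ran from -0.27 to 0.29, so changes within that range remain compatible with these libraries. Of these members, 3 passed in some alternatives. RRM2B passed without high-dose replicate 2 or 3 or low-dose replicate 3 (adjusted p = 0.0258, 0.0496 and 0.0246), and also with RLE size factors (0.0443), with only the compared groups in the fit (0.0446) and without the filter on low counts (0.0209). BTG2 passed without high-dose or low-dose replicate 1 (adjusted p = 0.0148 and 0.0118) and without the filter (0.0417), and FAS without high-dose or low-dose replicate 2 (adjusted p = 0.0217 and 0.0296).

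**Figure D1:**
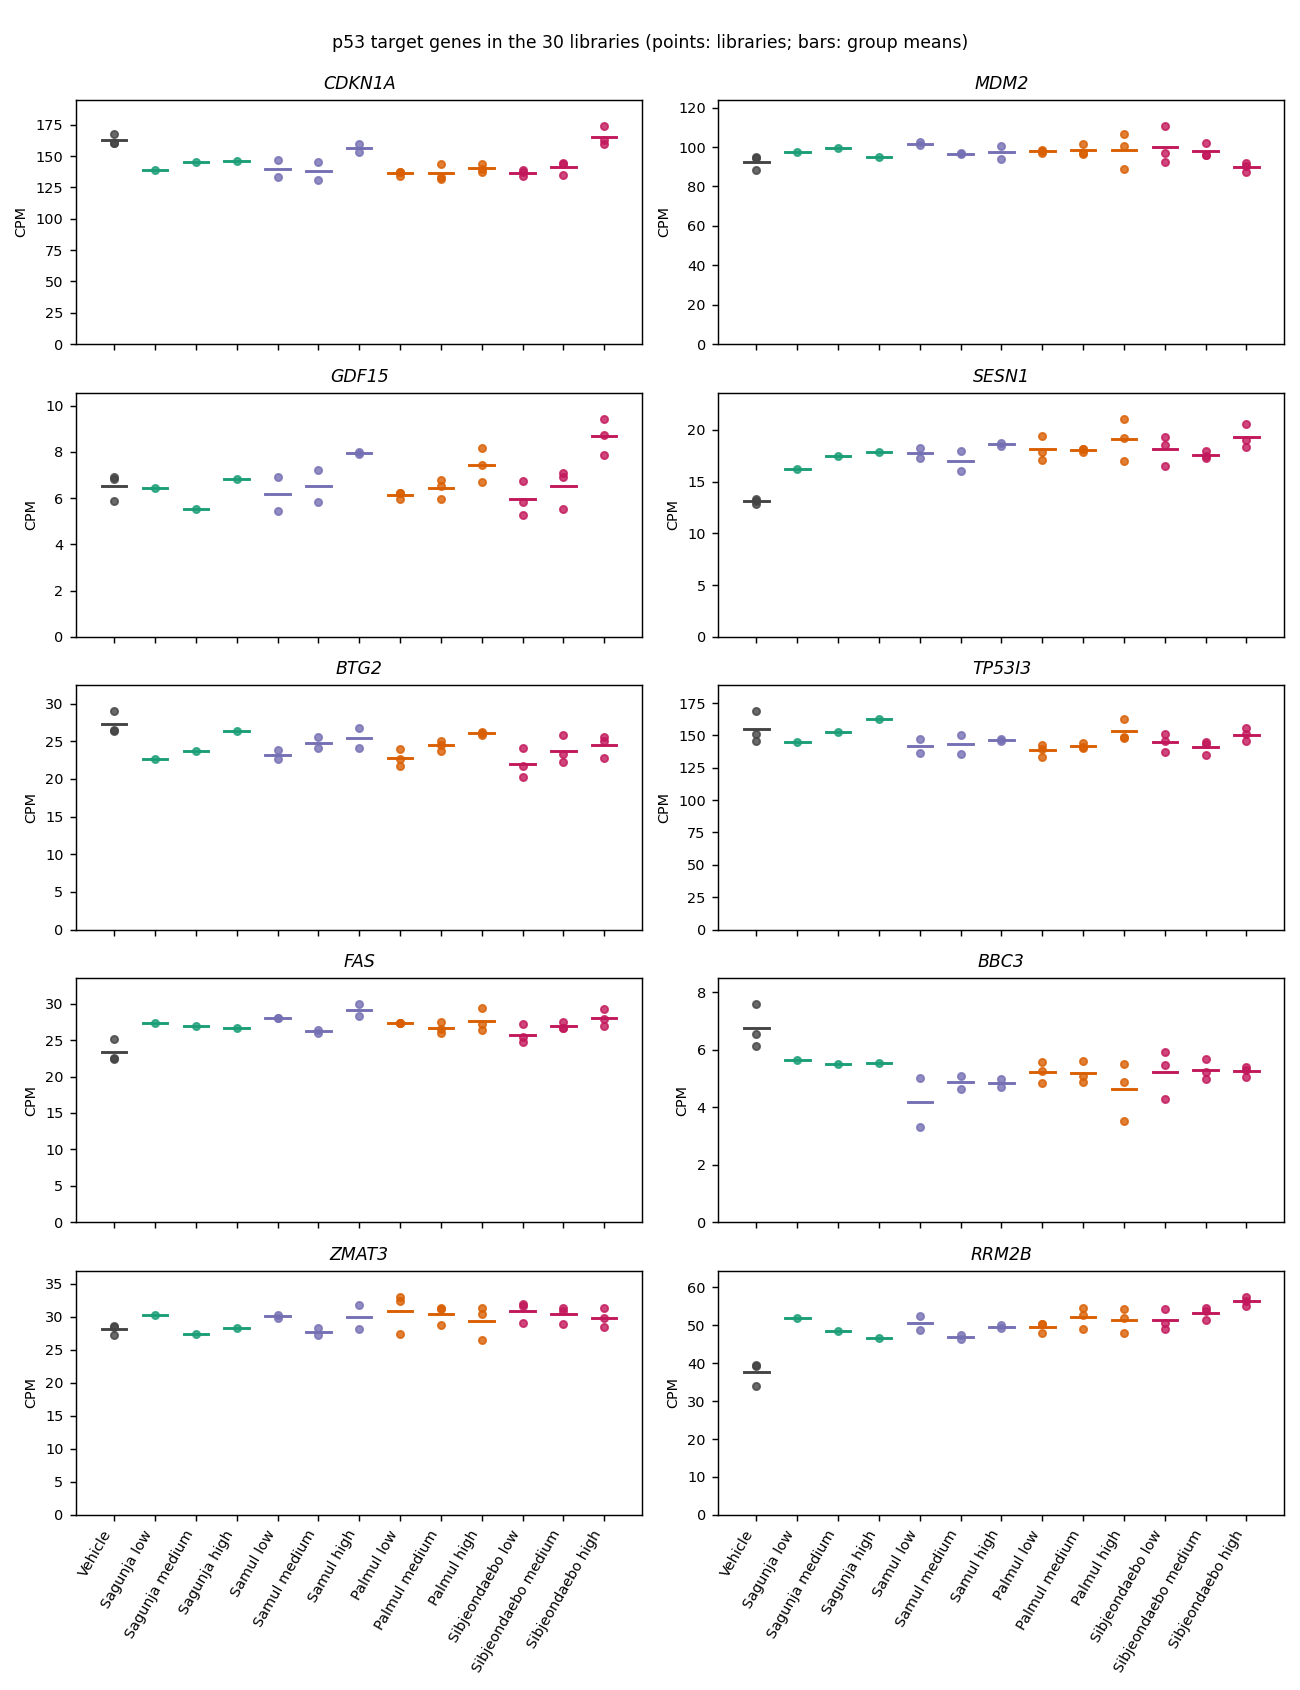
Level of each member (CPM, linear axis from 0) in every library, as points, with a bar at the mean of each of the 13 groups; the vehicle is at the left and each formula runs from low to high dose. CDKN1A reached 165 CPM at the high dose of Sibjeondaebo-tang, close to the vehicle mean of 163 CPM, while SESN1 and RRM2B were higher in all 27 extract libraries than in any vehicle library.

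Palmul-tang and Samul-tang gave no called member between the high and the low dose. In Palmul-tang, 0 of 10 members passed edgeR's test while 3.47% of all tested genes did (1.46% higher and 2.02% lower), 3 members were under an unadjusted p of 0.05, and DESeq2 called 0. The members nearest to a call were BTG2, with 26.3, 26.1 and 25.8 CPM at the high dose against 22.6, 21.7 and 24.0 CPM at the low dose (log2 change 0.19, adjusted p = 0.0962), and TP53I3. TP53I3, a quinone oxidoreductase-like enzyme linked to oxidative stress, measured 148, 149 and 163 CPM at the high dose against 143, 139.5 and 133 CPM at the low dose (log2 change 0.14, adjusted p = 0.123). In both genes the 3 high-dose libraries lay above the 3 low-dose ones. GDF15 was 6.69, 7.43 and 8.18 CPM at the high dose and 6.22, 6.23 and 5.98 CPM at the low dose (log2 change 0.28, adjusted p = 0.201). CDKN1A was at 138, 143 and 139.9 CPM at the high dose and at 138, 137 and 134 CPM at the low dose, and the log2 change of 0.04 had a 95% interval from -0.05 to 0.13.

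Samul-tang, with 2 libraries per dose, likewise had 0 of 10 members called by edgeR (1.34% of all tested genes, 0.604% higher and 0.74% lower), 2 under an unadjusted p of 0.05 and 0 by DESeq2. GDF15 had the largest log2 change, 0.37 (SE 0.14, adjusted p = 0.186), from 7.99 and 7.90 CPM at the high dose against 6.91 and 5.44 CPM at the low dose. CDKN1A measured 159.6 and 153 CPM at the high dose against 147 and 133 CPM at the low dose, without overlap (log2 change 0.16, SE 0.055, adjusted p = 0.152 by edgeR). The 95% interval of the CDKN1A change ran from 0.05 to 0.27. In the single Sagunja-tang libraries CDKN1A was 139, 145 and 146 CPM, GDF15 was 6.44, 5.51 and 6.84 CPM and MDM2 was 97.5, 99.6 and 95.02 CPM from the low to the high dose, with no replicate to judge them by.

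**Figure D2:**
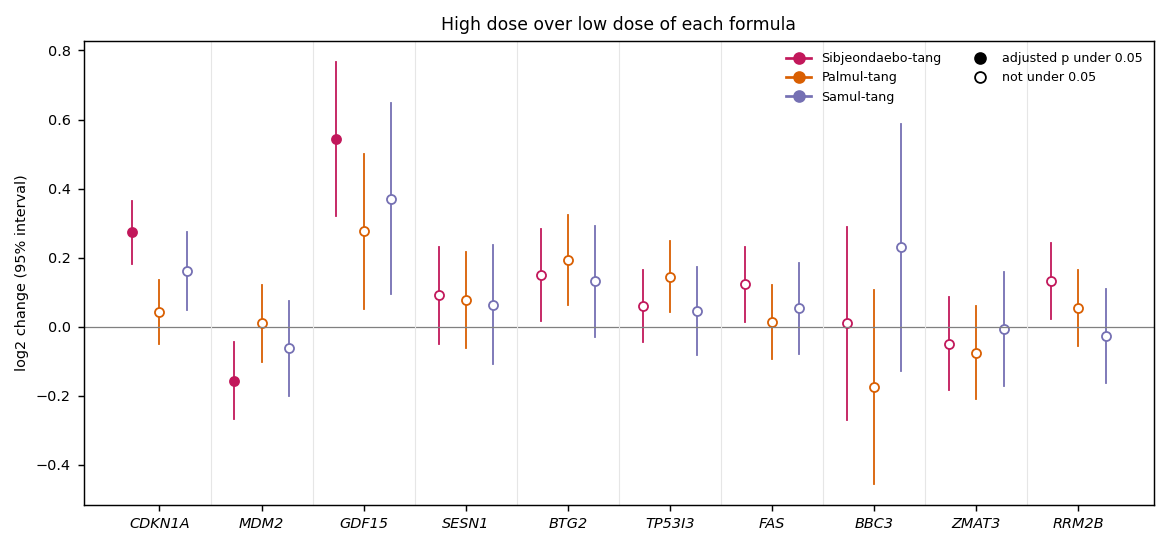
Log2 change of each member between the high and the low dose of Sibjeondaebo-tang, Palmul-tang and Samul-tang (points; vertical lines are 95% intervals; filled points passed an adjusted p of 0.05). The filled points are CDKN1A at 0.27, MDM2 at -0.16 and GDF15 at 0.54, all in Sibjeondaebo-tang.

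The medium dose was not told apart from the low dose for any member. In Sibjeondaebo-tang, Palmul-tang and Samul-tang, 0 of 10 members passed edgeR's test, none was under an unadjusted p of 0.05, and DESeq2 called 0, while edgeR called 0.0113%, 0.00565% and 0% of all tested genes, 1108, 741 and 988 genes were under an unadjusted p of 0.05 and DESeq2 called 14, 6 and 1 genes. In Sibjeondaebo-tang the log2 change was 0.04 for CDKN1A (95% interval -0.05 to 0.13) and 0.13 for GDF15 (-0.10 to 0.36). Both 95% intervals lie around 0, and for CDKN1A the interval ends below the change of 0.27 seen between the high and the low dose.

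Whether the CDKN1A change in Sibjeondaebo-tang differs from that in Palmul-tang, whose herbs Sibjeondaebo-tang contains, was tested. No such test was run against Samul-tang, where CDKN1A means were 156 CPM at the high and 140 CPM at the low dose (n = 2 each). A change particular to Sibjeondaebo-tang among all the formulas was thus not tested. At the high dose CDKN1A was 165 ± 7.63 CPM in Sibjeondaebo-tang and 140.3 ± 2.92 CPM in Palmul-tang (SD, n = 3 each), and the libraries did not overlap (log2 change 0.24, SE 0.045, adjusted p = 0.000129). It was the only member of 10 that edgeR called there, where 30.3% of all tested genes were called (14.3% higher and 16% lower). The high-minus-low change of CDKN1A was larger in Sibjeondaebo-tang than in Palmul-tang by 0.23 on the log2 scale (SE 0.064, adjusted p = 0.0120), and no other member passed this test of the difference, which called 14.9% of all tested genes (5.59% higher and 9.29% lower). GDF15 differed by 0.27 (SE 0.16, adjusted p = 0.270) and MDM2 by -0.17 (SE 0.077, adjusted p = 0.157), so for these genes a difference between the formulas was not shown. At the high dose MDM2 was also lower in Sibjeondaebo-tang than in Palmul-tang without passing the threshold (log2 change -0.14, adjusted p = 0.0610), and it passed without Palmul-tang high-dose replicate 1 (adjusted p = 0.00501), whose 88.8 CPM was the lowest of that group. Without that library the MDM2 difference in dose changes also passed (adjusted p = 0.0269). RRM2B at the high dose passed without Sibjeondaebo-tang replicate 2 or without Palmul-tang replicate 3 (adjusted p = 0.0349 and 0.0232), against 0.0643 with all libraries.

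Set against the vehicle, the members split in 2 directions, and for most of them the split was already present at the low dose. SESN1, a stress-inducible regulator of mTORC1 and of redox state, was 19.1, 20.6 and 18.3 CPM in Sibjeondaebo-tang high-dose libraries and 16.6, 19.3 and 18.5 CPM in its low-dose libraries, against 13.1, 13.3 and 12.8 CPM in the vehicle. All 27 extract libraries, from 16.0 to 21.1 CPM, lay above the vehicle. In Sibjeondaebo-tang the log2 change over vehicle was 0.56 (SE 0.073, adjusted p = 1.87e-07) at the high dose and 0.47 (SE 0.072, adjusted p = 5.12e-06) at the low dose, and it was 0.44 to 0.55 in both doses of Palmul-tang and Samul-tang.

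RRM2B, which supplies deoxynucleotides for DNA repair and for mitochondrial DNA outside S phase, followed the same order. It was 57.4, 55.0 and 56.3 CPM in Sibjeondaebo-tang high-dose libraries and 33.9, 39.6 and 39.2 CPM in the vehicle, a log2 change of 0.58 (SE 0.056, adjusted p = 6.84e-10). Every extract library, from 46.3 to 57.4 CPM, exceeded every vehicle library. FAS lay above all vehicle libraries in 26 of the 27 extract libraries, and measured 29.3, 27.0 and 27.9 CPM in Sibjeondaebo-tang high-dose libraries, against 22.5, 25.2 and 22.6 CPM in the vehicle (log2 change 0.26, SE 0.055, adjusted p = 0.00023). SESN1, FAS and RRM2B were called higher by edgeR in each of the 6 comparisons with the vehicle that have replicates, and DESeq2 did not call FAS at the low dose of Sibjeondaebo-tang (adjusted p = 0.0734).

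BBC3 encodes PUMA, a BH3-only protein through which p53 starts apoptosis, and it went the opposite way. It was 5.06, 5.31 and 5.41 CPM in Sibjeondaebo-tang high-dose libraries and 3.53, 5.50 and 4.89 CPM in Palmul-tang high-dose libraries, against 7.59, 6.54 and 6.12 CPM in the vehicle. All 27 extract libraries lay below the vehicle, and edgeR called BBC3 lower in all 6 comparisons, with log2 changes from -0.71 in Samul-tang at the low dose to -0.36 in Sibjeondaebo-tang at the high dose. BBC3 had the lowest counts of the members, and its call was lost in 5 of the 6 comparisons without a single library. Those libraries were vehicle replicate 1 (adjusted p = 0.174 for Sibjeondaebo-tang high, 0.163 for Sibjeondaebo-tang low, 0.165 for Palmul-tang low and 0.0940 for Samul-tang high), Sibjeondaebo-tang high-dose replicates 1, 2 and 3 (0.111, 0.0770 and 0.0630), Sibjeondaebo-tang low-dose replicate 1 (0.162), Palmul-tang low-dose replicates 2 and 3 (0.104 and 0.0578), Samul-tang high-dose replicates 2 and 3 (0.0650 and 0.127) and Samul-tang low-dose replicate 3 (0.106). Only the Palmul-tang high-dose change of -0.55 (SE 0.14, adjusted p = 0.00182) was called in all of its alternatives.

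CDKN1A lay below all vehicle libraries in 25 of the 27 extract libraries, and the exceptions were 2 of the high-dose libraries of Sibjeondaebo-tang. Its log2 change over vehicle was 0.02 (SE 0.045, adjusted p = 0.718) at the high dose of Sibjeondaebo-tang and -0.25 (SE 0.045, adjusted p = 4.48e-05) at its low dose. In Palmul-tang it was -0.21 at the high dose (adjusted p = 0.000323) and -0.26 at the low dose (adjusted p = 3.62e-05). In Samul-tang it was -0.06 at the high dose (adjusted p = 0.420) and -0.22 at the low dose (adjusted p = 0.0012). The higher CDKN1A level at the high than at the low dose of Sibjeondaebo-tang was thus a level near that of the vehicle, with means of 165 CPM in the high-dose libraries and 163 CPM in the vehicle. The low-dose call in Samul-tang was lost without its replicate 3 (adjusted p = 0.0950).

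BTG2 was below all vehicle libraries in 26 of the 27 extract libraries. It measured 24.0, 21.7 and 20.3 CPM in Sibjeondaebo-tang low-dose libraries, against 28.95, 26.5 and 26.3 CPM in the vehicle, without overlap (log2 change -0.31, SE 0.065, adjusted p = 0.00028). At the high dose it was 22.7, 25.5 and 25.0 CPM (log2 change -0.16, adjusted p = 0.0483), and this call was lost in 10 of 11 alternatives, among them the removal of any of the 6 libraries compared, with adjusted p from 0.0511 without vehicle replicate 3 to 0.344 without Sibjeondaebo-tang high-dose replicate 1. The Samul-tang low-dose call (log2 change -0.23, adjusted p = 0.0135) was lost without vehicle replicate 1 or Samul-tang replicate 2 (adjusted p = 0.0808 and 0.128).

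The remaining members were called in at most 1 comparison with the vehicle. GDF15 was called higher only at the high dose of Sibjeondaebo-tang (log2 change 0.41, SE 0.11, adjusted p = 0.00327), where its 3 libraries lay above the vehicle libraries of 5.88, 6.84 and 6.89 CPM. TP53I3, at 133 to 168 CPM over the 30 libraries, was called lower only at the low dose of Palmul-tang (log2 change -0.16, adjusted p = 0.0109), a call that was lost without vehicle replicate 2 or Palmul-tang low-dose replicate 3 (adjusted p = 0.172 and 0.0697). Without vehicle replicate 1, TP53I3 was also called lower at the low doses of Sibjeondaebo-tang and Samul-tang (adjusted p = 0.0399 and 0.0318). MDM2 and ZMAT3, an RNA-binding protein that p53 induces and that ran from 26.4 to 33.0 CPM, were called by edgeR or DESeq2 in 0 of the 6 comparisons, and each was under an unadjusted p of 0.05 in 1 of them. Their largest log2 changes were 0.14 each (adjusted p = 0.0925 for MDM2 in Samul-tang low and 0.110 for ZMAT3 in Palmul-tang low). MDM2 passed without Palmul-tang high-dose replicate 1 (adjusted p = 0.0238) and, at the low dose of Sibjeondaebo-tang, without its replicate 1 (adjusted p = 0.0214), and ZMAT3 passed without Palmul-tang low-dose replicate 2 (adjusted p = 0.0123). FAS lost its call at the low dose of Sibjeondaebo-tang (log2 change 0.14, adjusted p = 0.0445) without vehicle replicates 1 or 3 or low-dose replicates 1 or 2 (adjusted p = 0.195, 0.153, 0.0587 and 0.236), and also without the filter on low counts (0.0832) and with only the compared groups in the fit (0.112).

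Counted by comparison, 6 of 10 members were called between the high dose of Sibjeondaebo-tang and the vehicle (4 higher and 2 lower), against 41.8% of all tested genes (20% higher and 21.8% lower), and DESeq2 called the 4 higher members alone. The high dose of Palmul-tang gave 5 (3 higher and 2 lower), against 37.1% of all tested genes (19% higher and 18.1% lower). The high dose of Samul-tang gave 4 (3 higher and 1 lower), against 29.2% (15.3% higher and 13.9% lower). At the low dose, Sibjeondaebo-tang gave 6 (3 higher and 3 lower), against 36.9% (18.6% higher and 18.2% lower). Palmul-tang gave 7 there (3 higher and 4 lower), against 36% (18.2% higher and 17.8% lower), and Samul-tang gave 6 (3 higher and 3 lower), against 30.7% (15.6% higher and 15.1% lower). These 6 comparisons share the 3 vehicle libraries, so their agreement is no repeated measurement. The median log2 change of the members over vehicle lay between -0.0040 and 0.08 in all 6, and that of all tested genes between -0.03 and 0.0065.

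**Figure D3:**
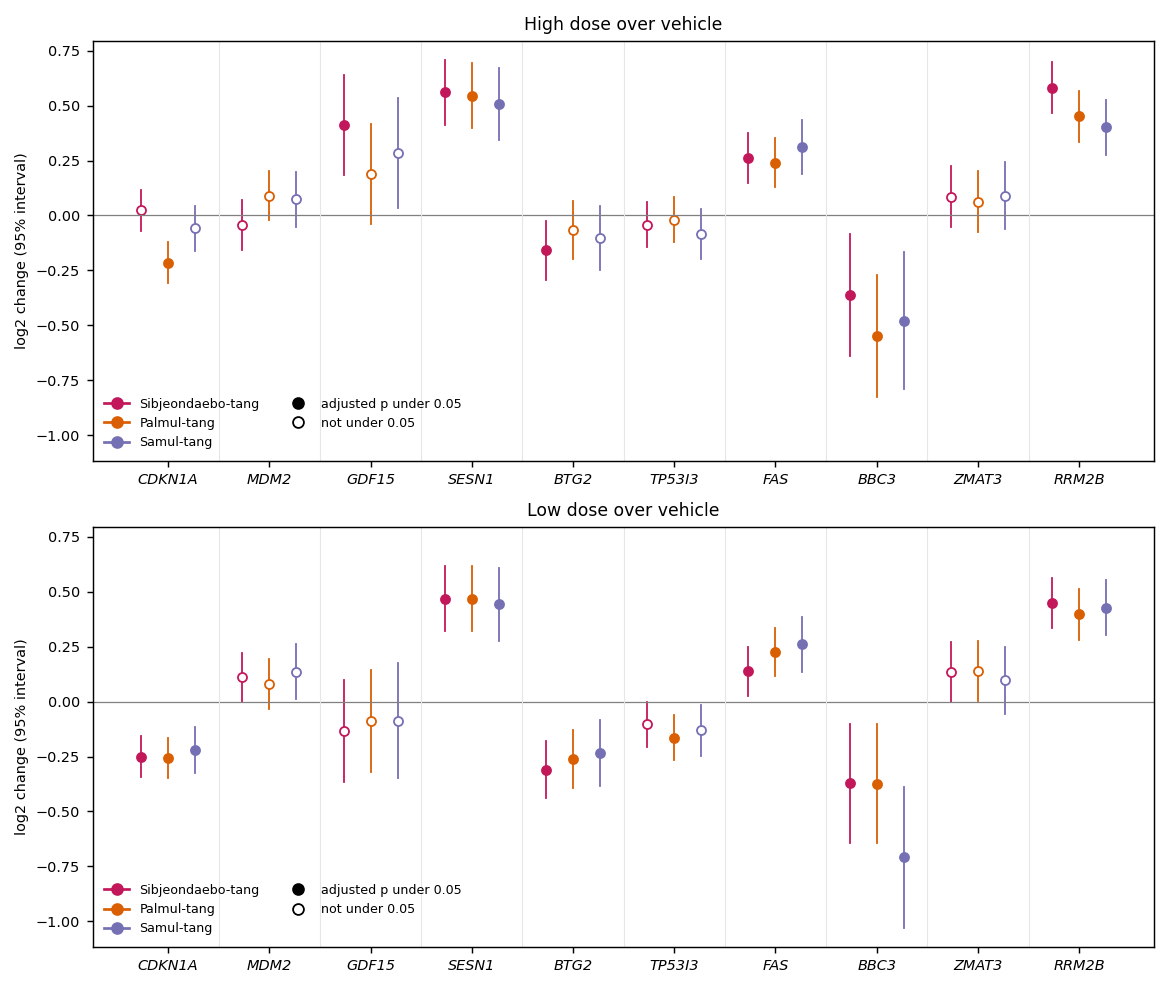
Log2 change of each member over the vehicle at the high dose (upper panel) and the low dose (lower panel) of 3 formulas, with 95% intervals; filled points passed an adjusted p of 0.05. SESN1, FAS and RRM2B are filled above 0 and BBC3 below 0 in every formula and dose shown, whereas CDKN1A is below 0 at each low dose and at 0.02 at the high dose of Sibjeondaebo-tang.

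Across the 13 group means, the highest mean of a member was 1.13 times its lowest for ZMAT3 and MDM2, 1.21 times for CDKN1A and 1.62 times for BBC3. The order of the CDKN1A means was led by Sibjeondaebo-tang high at 165 CPM, the vehicle at 163 CPM and Samul-tang high at 156 CPM, and only the steps below the vehicle and below Samul-tang high exceeded the pooled SD within groups of 5.63 CPM. The 10 groups from Sagunja-tang high at 146 CPM to Palmul-tang low at 136 CPM did not differ beyond that spread from their neighbours. For RRM2B only the steps above and below the main body of extract groups exceeded its pooled SD of 2.31 CPM, with Sibjeondaebo-tang high at 56.3 CPM on top and the vehicle at 37.6 CPM at the bottom. For MDM2, BTG2 and ZMAT3 no step between neighbours exceeded the pooled SD. Small steps do not make the ends of an order alike. BTG2 means ran from 27.3 CPM in the vehicle to 22.0 CPM in Sibjeondaebo-tang low, with a pooled SD of 1.37 CPM.

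As a description over the 13 group means, which share their libraries' depth and the vehicle, the log2 levels of SESN1 and RRM2B had a Pearson r of 0.85, SESN1 and FAS of 0.82, and CDKN1A and MDM2 of -0.79. Without Sibjeondaebo-tang high they were 0.83, 0.81 and -0.64, and without that group and the vehicle they were 0.09, 0.30 and -0.26. BTG2 and TP53I3 kept an r of 0.63 without the 2 groups, against 0.68 with them. Among tested genes whose mean log2 CPM was 2 or more, the genes most like CDKN1A were BBLN (r = 0.97), MSC (0.97) and CANT1 (0.97), and those most like MDM2 were ATG2B (0.97), SPICE1 (0.96) and FAM111A (0.95). Without Sibjeondaebo-tang high, r was 0.96, 0.96 and 0.97 for the former and 0.93, 0.91 and 0.91 for the latter. All were picked as the highest r among many genes over 13 means, which favours high values.

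Beyond the 10 members, 35 other genes that p53 is known to activate were all tested. Between the high and the low dose of Sibjeondaebo-tang 14 of them were called higher and 6 lower, beside 18.5% and 19.9% of all tested genes. Their median log2 change was 0.11, and the count of lower genes was 3 without high-dose replicate 1 or without high-dose replicate 3. CCNG1, the cyclin G1 gene and a classic p53 target, was 199.7 ± 1.23 CPM at the high dose and 161 ± 4.90 CPM at the low dose (log2 change 0.31, adjusted p = 1.46e-06), and PERP, a desmosome protein linked to p53-dependent apoptosis, had 0.23 (adjusted p = 2.5e-05). PHLDA3, an inhibitor of AKT, had 0.38 (adjusted p = 3.64e-05).

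In Palmul-tang, where 3.47% of all tested genes were called, 3 of these 35 genes were called, all higher, among them the DNA repair gene DDB2 (log2 change 0.22, adjusted p = 0.00429) and the apoptosis effector BAX (0.17, adjusted p = 0.0361). DDB2 was lost without Palmul-tang high-dose replicate 1 or low-dose replicate 3 (adjusted p = 0.0547 and 0.0741), and the count was 1 without low-dose replicate 3. BAX was lost without any of 5 libraries, namely high-dose replicates 2 and 3 and low-dose replicates 1, 2 and 3 (adjusted p = 0.0866, 0.162, 0.0671, 0.0866 and 0.189). In Samul-tang 1 of the 35 was called higher, beside 1.34% of all tested genes called. Over the vehicle, the high dose of Sibjeondaebo-tang had 13 of the 35 genes higher and 3 lower, beside 20% and 21.8% of all tested genes, led by CCNG1 (log2 change 0.67, adjusted p = 5.81e-13), PERP (0.49, adjusted p = 3.47e-11) and the stem cell factor gene KITLG (0.49, adjusted p = 6.87e-09). The high dose of Palmul-tang had 12 higher and 7 lower, beside 19% and 18.1% of all tested genes. That of Samul-tang had 10 higher and 5 lower, beside 15.3% and 13.9%. The low doses had 9 higher and 9 lower in Sibjeondaebo-tang, 9 higher and 10 lower in Palmul-tang and 8 higher and 6 lower in Samul-tang. Of all tested genes, 18.6% were higher and 18.2% lower at these doses in Sibjeondaebo-tang, 18.2% and 17.8% in Palmul-tang, and 15.6% and 15.1% in Samul-tang. When single libraries were left out, the count lower at the high dose of Samul-tang was 3 without vehicle replicate 1 or 2 or high-dose replicate 2 and 2 without high-dose replicate 3. At its low dose 5 were higher and 3 lower without low-dose replicate 3, and 5 higher without vehicle replicate 1.

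Among 15 regulators of p53, of which 13 were tested, 3 were called higher and 4 lower between the high and the low dose of Sibjeondaebo-tang (18.5% and 19.9% of all tested genes), whereas edgeR and DESeq2 each called 0 in Palmul-tang, where 3 were under an unadjusted p of 0.05, and 0 in Samul-tang, where 1 was. MDM4, the partner of MDM2 that blocks p53's activating domain, was 8.73 ± 0.281 CPM at the high dose and 14.4 ± 1.54 CPM at the low dose (log2 change -0.72, SE 0.081, adjusted p = 1.9e-08). The DNA damage kinase ATM was 29.2 ± 1.08 CPM at the high dose and 49.3 ± 4.06 CPM at the low dose (log2 change -0.75, adjusted p = 5.29e-12), and its relative ATR was 44.7 ± 0.486 CPM at the high dose and 54.2 ± 0.272 CPM at the low dose (log2 change -0.28, adjusted p = 0.000107). Each of these 3 changes was larger in size in Sibjeondaebo-tang than in Palmul-tang by the test of the difference, with differences of -0.77 for MDM4 (adjusted p = 7.21e-06), -0.62 for ATM (adjusted p = 1.17e-06) and -0.27 for ATR (adjusted p = 0.0116). The ATR difference was lost without Sibjeondaebo-tang high-dose replicate 2 (adjusted p = 0.0507). ATM and ATR were picked by small adjusted p in comparisons that include the Sibjeondaebo-tang one of doses, which is part of this test.

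Of 20 cell cycle genes that p53 is known to repress through p21 and the DREAM complex, 16 were called higher and 1 lower between the high and the low dose of Sibjeondaebo-tang and 3 did not pass, beside 18.5% of all tested genes higher and 19.9% lower. Their median log2 change was 0.36, against -0.01 over all tested genes. The CDKN1A transcript was also higher in the same libraries. Whether these changes are linked was not tested, and the p21 protein was not measured. CDC20, an activator of the anaphase-promoting complex, was 85.9 ± 6.39 CPM at the high dose and 60.7 ± 0.676 CPM at the low dose (log2 change 0.50, adjusted p = 4.27e-09). The replication helicase subunit MCM5 had 0.44, and the mitotic and S-phase cyclins CCNB2 and CCNA2 had 0.43 and 0.41. The gene called lower was CENPF, named after its value was seen, at 114 ± 7.08 CPM at the high dose and 132 ± 9.73 CPM at the low dose (log2 change -0.22, adjusted p = 0.00331), and no gene of the list was called lower without high-dose replicate 1.

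In Palmul-tang, where CDKN1A did not pass, 12 of the 20 were called, all higher (median 0.24), beside 1.46% of all tested genes higher, led by CDC20 (log2 change 0.33, adjusted p = 0.000116). That count was 5 without high-dose replicate 1, 6 without low-dose replicate 2 and 4 without low-dose replicate 3. In Samul-tang 3 were called, all higher (MYBL2 at 0.40, PLK1 at 0.30 and CDC20 at 0.27), beside 0.604% of all tested genes higher, and edgeR called 0 of them without high-dose replicate 2, high-dose replicate 3 or low-dose replicate 3. PLK1 was also lost there without low-dose replicate 2 (adjusted p = 0.0900). Against the vehicle, the high dose of Sibjeondaebo-tang had 7 of the 20 higher and 2 lower, that of Palmul-tang 9 higher and 5 lower, and that of Samul-tang 5 higher and 5 lower, beside 41.8%, 37.1% and 29.2% of all tested genes called. In Samul-tang 3 were higher and 3 lower without vehicle replicate 1, 2 higher and 3 lower without high-dose replicate 2, 3 higher and 1 lower without high-dose replicate 3, and 3 lower without vehicle replicate 2. The low doses had 12 called, all lower, in Sibjeondaebo-tang, 9 called, all lower, in Palmul-tang, and 1 higher and 8 lower in Samul-tang, beside 36.9%, 36% and 30.7% of all tested genes called, and the counts of higher genes were 0 to 2 when single libraries were left out. Between the medium and the low dose, 13 of the 20 in Sibjeondaebo-tang were under an unadjusted p of 0.05 by edgeR's test. Palmul-tang had 6 and Samul-tang 3. Of the 17701 tested genes, 1108, 741 and 988 were under it in these formulas, and edgeR called 2, 1 and 0 after adjustment.

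**Figure D4:**
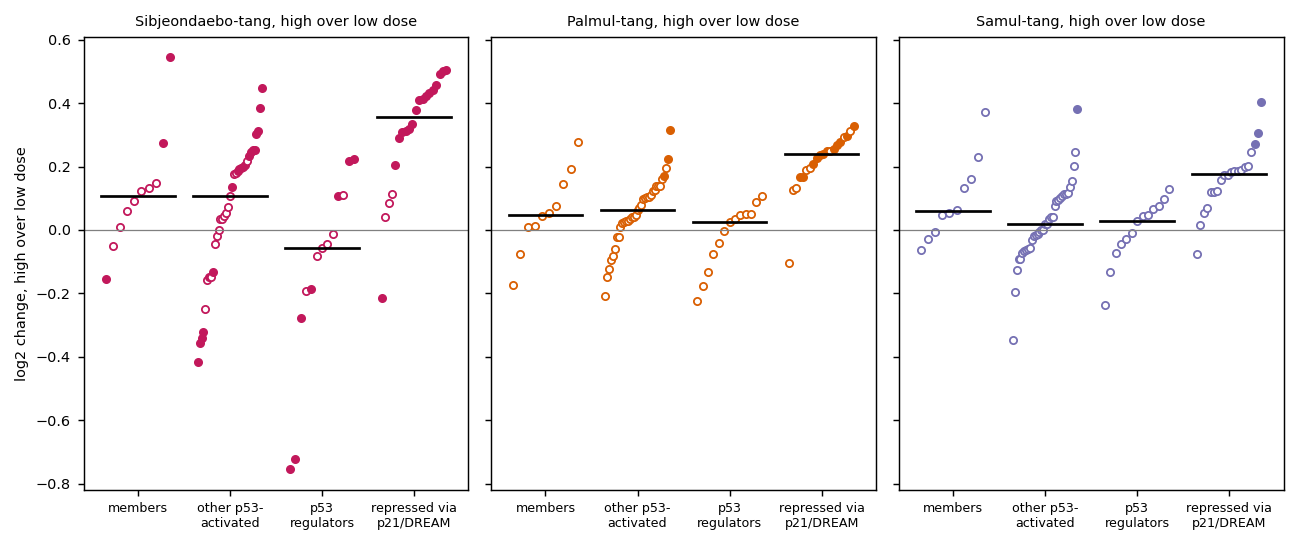
Log2 change between the high and the low dose for the 10 members, 35 other p53-activated genes, 13 tested p53 regulators and 20 genes repressed through p21 and DREAM, 1 point per gene in rank order, filled where the adjusted p was under 0.05, with a bar at each median. In Sibjeondaebo-tang the medians are 0.11 for the members and 0.36 for the repressed genes, and MDM4 and ATM are the 2 lowest points among the regulators.

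Genes of other pathways that share targets with p53 were counted in the same comparison, in which 38.4% of all tested genes were called, and their part in the members' changes was not tested. Of 12 ATF4 and CHOP targets, a pathway that also raises GDF15, 4 were called, all higher, among them ASNS (log2 change 0.53, adjusted p = 3.61e-09) and TRIB3 (0.31, adjusted p = 3.1e-05). Of 12 immediate early genes, a class to which BTG2 is often counted, 5 were called, all higher, led by IER3 (0.38, adjusted p = 1.38e-05). Of 10 FOXO targets, 3 were higher and 2 lower, with BNIP3 at 0.25 and BCL6 at -0.35. Of 8 epithelial markers, 4 were higher and 2 lower. Of the tested markers of other cell types (4 of 6 for fibroblasts, 2 of 6 for leukocytes and 1 of 4 for endothelium), the leukocyte marker CD68 was higher (log2 change 0.60, adjusted p = 0.000584) and the fibroblast marker COL3A1 lower (-0.26, adjusted p = 0.0236). No other of them was under an unadjusted p of 0.05 by edgeR's test. Means at the high and the low dose were 1.55 and 1.19 CPM for LUM, 5.28 and 5.46 CPM for DCN and 1.54 and 1.96 CPM for COL1A1. The summed leukocyte markers ran from 22.5 to 25.5 CPM at the high dose, from 15.5 to 19.7 CPM at the low dose and from 25.4 to 30.01 CPM in the vehicle, with PTPRC and CD3E near 0 throughout. Most of that sum was CD68 itself, with means of 21.7 CPM at the high dose and 14.3 CPM at the low dose. CD14 went the other way, with means of 2.40 and 2.62 CPM.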

How the data were processed

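RNA of 30 libraries was made into directional messenger RNA libraries and sequenced as 100 bp read pairs, per the labels' protocols. The authors deposited expected counts, 1 per gene and library, and the submitters' processing notes name FastQC 0.11.9, Trim Galore 0.6.5, STAR 2.7.3a, RSEM 1.3.3 and the build hg38 (GRCh38). The annotation release and the strand setting are not given in the sources used here. The table's other 240 columns were not used.

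Expected counts, of which 8.50% to 9.82% per library were not whole, were rounded, and totals ran from 23986637 to 35159898 counts. Genes were filtered by edgeR's filterByExpr (17701 kept), scaled by TMM and fitted in 1 quasi-likelihood model of all 30 libraries with a mean per group (edgeR 4.0.16, limma 3.58.1, R 4.3.3; 17 residual degrees of freedom). P-values were adjusted by Benjamini-Hochberg over all tested genes, with a threshold of 0.05. Groups came from the sample titles, and Sagunja-tang was not tested. The fits were tested on simulated data. Alternatives were RLE size factors, no filter, only the compared groups in the fit, a replicate block, leaving out each library, and DESeq2 1.42.0. Gene symbols and coordinates were matched by Ensembl ID.

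The members, the gene lists and the tests were chosen with earlier results of these data known. All members were named. From each list, up to 4 genes with the smallest adjusted p in each comparison of high with low dose and in Sibjeondaebo-tang high dose against vehicle could be named, with MDM4, CDKN2A and the 3 genes most like CDKN1A and like MDM2. Some genes of the lists are counted but not reported here by name.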

Additional observations from a re-analysis of the deposited data

Results flagged for a closer look

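The change between the high and the low dose differed between Sibjeondaebo-tang and Palmul-tang, by an interaction term in edgeR's quasi-likelihood model, for 1 member and 6 of the named genes of the p53-linked lists. The log2 difference of CDKN1A was 0.23 (adjusted p = 0.0120), from changes of 0.27 in Sibjeondaebo-tang and 0.04 in Palmul-tang. It was -0.62 for ATM (adjusted p = 1.17e-06) and -0.77 for MDM4 (adjusted p = 7.21e-06). Among p53-activated genes it was 0.28 for CCNG1 (adjusted p = 0.00199) and 0.18 for PERP (adjusted p = 0.0253), which was lost without Palmul-tang high-dose replicate 2 or low-dose replicate 2 (adjusted p = 0.0860 and 0.0536). It was 0.27 for MCM5 (adjusted p = 0.00595) and -0.27 for ATR (adjusted p = 0.0116), which was lost without Sibjeondaebo-tang high-dose replicate 2 (adjusted p = 0.0507). The same test called 14.9% of all tested genes. Apart from MDM4, the named genes were picked by small adjusted p in comparisons that include the Sibjeondaebo-tang one of doses. That change is part of this test, which favours their passing, so their count cannot be set against this share.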

How the results depend on the processing

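Of 1640 alternative values of the members' changes, 1577 kept their side of the threshold, 40 lost a call and 23 gained one. No change that was called in the reported or the alternative analysis turned its direction. Turns of direction among changes called in neither were not counted. Of 328 alternative counts, 286 lay within 1.5 times the reported one, counting those that were 0 in both. The causes of these moves were not tested. Without the filter on low counts, 5 members were called between the Sibjeondaebo-tang doses and 3 between the high doses of Sibjeondaebo-tang and Palmul-tang, and the genes called were 464 for Samul-tang high against low and 38, 6 and 8 for medium against low in Sibjeondaebo-tang, Palmul-tang and Samul-tang. With only the compared groups in the fit, these counts of genes were 488, 0, 7 and 11, and 381 for Palmul-tang high against low. DESeq2 called 14, 6 and 1 genes between medium and low, and a fit without the Sibjeondaebo-tang high libraries called 1 in Sibjeondaebo-tang. Same-numbered libraries of different groups had a median correlation of deviations of 0.0129 (from -0.170 to 0.178 over 111 pairs). Differently numbered ones ran from -0.271 to 0.209. These pairs pool the series of library codes, so a pairing within 1 series was not tested. With a replicate block 2 members were called between the high doses of Sibjeondaebo-tang and Palmul-tang. The block also gave 373 genes in Samul-tang high against low, and 4 and 2 genes between medium and low in Sibjeondaebo-tang and Palmul-tang.

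Leaving out 1 library gave 3 to 4 members and 5739 to 6408 genes for Sibjeondaebo-tang high against low, 0 members and 351 to 591 genes for Palmul-tang, and 0 members and 49 to 149 genes for Samul-tang. Medium against low gave 0 members throughout and 0 to 11, 0 to 1 and 0 to 1 genes. Against the vehicle, the high doses gave 4 to 5, 5 to 6 and 3 to 4 members with 6083 to 6978, 5210 to 6309 and 2769 to 5015 genes in Sibjeondaebo-tang, Palmul-tang and Samul-tang, and the low doses 5 to 6, 5 to 7 and 4 to 6 members with 5239 to 6397, 5042 to 6150 and 2410 to 5458 genes. Sibjeondaebo-tang against Palmul-tang gave 1 to 2 members with 4149 to 4999 genes at the high dose and 1 to 2 with 1893 to 2850 for the difference in dose changes. The low counts of BBC3 and GDF15 limit the precision of their changes.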
